A study of Bos taurus with 32 samples.

Results

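The comparison described here is that of repeat breeder (RB) cows with normally fertile (non-RB) cows in the caruncles (CAR) of the uterine horn ipsilateral to the corpus luteum. It rests on 8 of the 32 arrays of the series, 4 from RB and 4 from non-RB cows, chosen by the group, tissue area and horn that their titles name. The series profiled endometrium of adult, non-lactating Japanese Black cows slaughtered 15 days after estrus, as CAR and intercaruncular (ICAR) tissue of the ipsilateral and the contralateral horn, on a custom bovine 1-colour oligonucleotide array. CAR was dissected from the middle of the horn. The question was whether endometrial gene expression differs between cows of low and normal fertility at the stage when a conceptus would be recognised by the mother.

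RB cows showed estrus, but their cycles were not always normal. Their uterus and ovaries felt healthy on palpation, yet they had not conceived after repeated inseminations, although they had calved earlier in life. Non-RB cows had conceived, were then induced to abort with a prostaglandin F2α analog, and had cycled normally again before slaughter. That recent pregnancy, the induced abortion, the regularity of the cycle and fertility itself cannot be told apart in these groups. All animals were kept on 1 ranch, each group had 4 cows by the study's methods, and the labels give no age for single animals.

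Caruncles are the raised, gland-free areas of ruminant endometrium that fuse with fetal cotyledons to form the placentome. They hold a luminal epithelium over a dense, vascular stroma, whereas the glands that secrete histotroph, the nutrient fluid of the early conceptus, open between them. Around the day sampled, progesterone from the corpus luteum has prepared this tissue for attachment, and interferon tau from an elongating conceptus would stop the release of prostaglandin that ends the cycle.

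A probe was tested where 2 or more of the 8 arrays read it well above background, which 13080 of 15208 probes did. Each value is a log2 signal from which the 75th percentile of its array was subtracted, so 0 is the signal at that percentile and 1 unit is a 2-fold difference. That percentile lay between 2246 and 4857 intensity units, and an array read 78.4% to 85.1% of its probes well above background. RB and non-RB arrays did not share a slide, so slide and group could only be separated through a random block. They shared 2 scan sessions (the month of the scan), 1 with non-RB replicates 1 and 2 and RB replicates 1, 2 and 3, the other with non-RB replicate 4 and RB replicate 4. Non-RB replicate 3 was scanned in a session of its own. The standard deviation of 100 spots that carry the same sequence, not flagged as control, was 0.430 on the log2 scale for non-RB replicate 4. It was 0.395 for RB replicate 4, against 0.121 to 0.268 on the other 6 arrays.

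The area label was checked against ICAR tissue of the same horn. SPDEF, a transcription factor of secretory epithelium, was lower in CAR than in ICAR by a log2 difference of -2.17, the gland secretory protein BPIFB1 by -2.20 and the gland regulator FOXA2 by -1.81. Over the 16 ipsilateral arrays none of these passed limma's adjusted threshold (adjusted p = 0.342, 0.327 and 0.342), and 0 of 12923 probes did. That fit did not pair the CAR and ICAR arrays, although by the study's methods both areas came from the same cows. Differences between cows therefore stayed in its error, and a paired fit of the areas was not run. The other gland markers differed less, PIGR by -0.55, LTF by -0.38 and -0.36 on its probes, CFTR by 0.0018 and SERPINA14 by 0.26, so the label was borne out by some of these genes and not by others.

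No probe differed between RB and non-RB CAR at an adjusted p under 0.05 (0 of 13080, 0.0%; smallest adjusted p = 0.979, limma with Benjamini-Hochberg adjustment), and the t-test that the methods name gave 0 after the same adjustment. The unadjusted limma p was under 0.05 for 446 probes (3.41%), of which 189 (1.44%) were higher and 257 (1.96%) were lower in RB. The methods' t-test gave 163 higher and 299 lower probes at that threshold. In 87 probes (0.665%) every RB array was above every non-RB array, and in 171 (1.31%) every RB array was below. With 4 arrays a group, such a separation gives a two-sided exact permutation p of 0.0286, the smallest that this design allows. In this fit neither the share past the unadjusted threshold nor that of separated probes was above what chance gives with no group difference. The log2 difference exceeded 1 in size for 186 higher and 177 lower probes, while 9 in 10 probes lay between -0.65 and 0.64 and the median was 0.02. With the slide as a random block 66 probes were higher and 113 lower at the unadjusted threshold. With the scan session as a block 584 and 576 were, which is above the chance share, still with 0 after adjustment. Single genes are therefore described below by their values on 4 against 4 arrays, and their p-values are unadjusted. Many were named because their groups were apart at an unadjusted p under 0.05, or because the study discusses or lists them from these samples, so their direction here is not independent evidence.

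**Figure D1:**
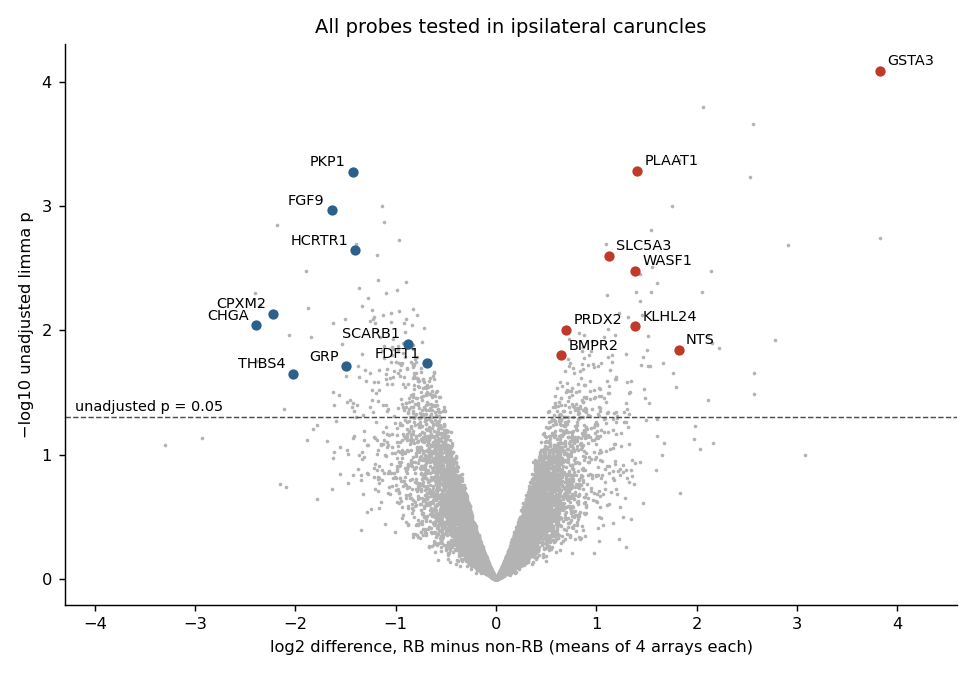
Each point is 1 of 13080 probes tested in ipsilateral CAR, with the log2 difference (RB minus non-RB, means of 4 arrays each) on the x axis and −log10 of the unadjusted limma p on the y axis. Coloured points are named genes of the text, red where higher and blue where lower in RB, and the dashed line marks the unadjusted threshold of 0.05. GSTA3 lies at the upper right with a log2 difference of 3.83, and PKP1 is the highest named point on the left.

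The gene with the lowest p was GSTA3, an alpha-class glutathione S-transferase that conjugates electrophiles to glutathione and also acts as a steroid isomerase. Its probe carries no gene symbol in the deposited files and took its name from the study's own list for these tissues. Probes of GSTA3, KLHL24 and SPOPL, 3 of the 10 named in that way, are printed here with a probe that the files describe as an immunoglobulin light chain, since symbols alone do not identify them. They run 5′ to 3′ as the array design gives them, each 60 bases long with at least 1 reading frame free of stop codons and found on no other probe of the array.

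GSTA3: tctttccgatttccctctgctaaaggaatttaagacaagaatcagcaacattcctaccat
KLHL24: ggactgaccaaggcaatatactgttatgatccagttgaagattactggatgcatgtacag
SPOPL: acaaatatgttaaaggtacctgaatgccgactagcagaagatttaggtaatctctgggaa
immunoglobulin light chain VJ: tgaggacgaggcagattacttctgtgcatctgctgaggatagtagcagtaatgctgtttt

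GSTA3 gave log2 signals of -2.18, -1.62, -3.04 and -4.04 on the RB arrays. On the non-RB arrays it gave -8.01, -5.90, -5.80 and -6.48, and on 3 of those 4 the probe was well above background. The groups were far apart, the lowest RB array lying above the highest non-RB array by more than either group's SD of 1.06 (RB) and 1.02 (non-RB). The log2 difference was 3.83 ± 0.60 (SE), a 14.2-fold higher signal in RB (exact permutation p = 0.0286; limma p = 8.18e-05, adjusted p = 0.979). It was 4.68 within the larger scan session and 2.44 within the smaller, and ranged from 3.34 to 4.27 when single arrays were left out. Background correction with normexp gave 2.28.

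Other enzymes of this kind had smaller differences. Of 35 antioxidant and glutathione genes tested, 21 were higher and 14 lower in RB, with a median log2 difference of 0.04, against -0.01 over all 5457 named genes. At the unadjusted threshold 1 was higher and none lower, where 3.24% of all named genes passed, 1.15% higher and 2.09% lower. Every RB array was below every non-RB array for 1 member, the mitochondrial superoxide dismutase SOD2 (-0.41), and above for none, where 1.61% and 0.568% of all named genes were so. GSTA2, GSTA4 and GSTP1, further glutathione S-transferases, had log2 differences of -0.51, 0.39 and 0.24. The member past that threshold was PIPOX, a peroxisomal oxidase that degrades sarcosine and pipecolic acid and yields hydrogen peroxide, with a log2 difference of 2.11 ± 0.87 (SE) that was 0.67 after normexp correction and stayed past the threshold in 2 of 8 fits with single arrays left out. Its RB arrays read -5.03, -3.86, -6.17 and -4.46 and its non-RB arrays -8.69, -4.32, -6.73 and -8.21, so non-RB replicate 2 lay within the RB range and the other 3 below it (exact permutation p = 0.143). PRDX2, a peroxiredoxin that reduces hydrogen peroxide, was read by a pair of probes. The probe named from the study's list read 2.19, 1.94, 1.85 and 1.97 on RB and 1.38, 1.14, 1.25 and 1.39 on non-RB arrays, without overlap, a difference of 0.70 ± 0.22 (SE). The other read 1.71, 1.65, 1.54 and 0.78 on RB and 0.80, 0.82, 0.98 and 0.71 on non-RB arrays, with RB replicate 4 inside the non-RB range and a difference of 0.59 ± 0.27 (SE).

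KLHL24 and SPOPL encode adaptors that bring substrates to cullin-3 ubiquitin ligases. KLHL24 read -0.26, 0.48, -0.24 and -0.88 on RB and -2.59, -0.68, -1.84 and -1.33 on non-RB arrays. Only non-RB replicate 2 lay inside the RB range, and the difference was 1.39 ± 0.43 (SE; exact permutation p = 0.0571), at 1.63 within the larger scan session and 0.45 within the smaller. SPOPL had a difference of 1.08 ± 0.49 (SE; exact permutation p = 0.143), with RB replicate 4 at -4.59 below 3 of the 4 non-RB arrays, which read -4.42, -4.27, -3.69 and -5.37. Among the 8 family genes named from the files, none passed the unadjusted threshold, where 3.24% of all named genes did, and the median was 0.13. In that family KLHL3 alone kept its groups apart, with RB arrays at -2.39, -2.01, -2.41 and -2.31 and non-RB arrays at -3.43, -2.58, -2.55 and -2.55, a difference of 0.50.

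Genes of cholesterol synthesis and uptake were mostly lower in RB. Of 20 tested, 18 had a negative difference, against 51.5% of all named genes, and the median log2 difference was -0.47. At the unadjusted threshold 5 were lower and none higher, against 2.09% and 1.15% of all named genes. Among them were PMVK, the phosphomevalonate kinase (-0.86), FDFT1, which commits farnesyl pyrophosphate to sterols (-0.69), SCARB1, the receptor that takes up cholesterol from high-density lipoprotein (-0.88), and LRP8, a lipoprotein receptor that was not well above background on any RB array and on 2 non-RB arrays only, so that its call has no bound above 1. Over the 19 alternative settings run, the median of the list stayed between -0.63 and -0.33. It was -0.61 within the larger scan session and -0.42 within the smaller. The score of each array, the median deviation of the list's genes from their mean over all arrays compared, nevertheless overlapped between groups. It was -0.16, -0.34, -0.042 and -0.0031 on RB arrays and 0.55, 0.067, -0.085 and 0.33 on non-RB arrays. The non-RB array at -0.085 lay below the RB arrays at -0.042 and -0.0031.

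FDFT1 was the most even of these genes, with both of its probes separating the groups. One probe read 2.54, 2.12, 2.30 and 2.58 on RB and 3.26, 3.0, 2.76 and 3.26 on non-RB arrays. SCARB1 also separated them, at -3.54, -2.94, -2.68 and -3.48 in RB and -2.45, -2.09, -2.63 and -1.94 in non-RB, with RB replicate 3 and non-RB replicate 3 close together. PMVK rested in part on non-RB replicate 1 at 0.97, without which its difference was -0.51. SQLE, the squalene epoxidase that acts after FDFT1 and is named from the study's list, had a difference of -0.96 ± 0.36 (SE; exact permutation p = 0.0571). DHCR7 (-0.65), TM7SF2 (-0.58), HMGCS1 (-0.36) and FDPS (-0.33) had negative differences that did not pass the threshold. Positive values were measured for APOE, a lipoprotein ligand (0.31), and ACAT2, which makes acetoacetyl-CoA (0.22).

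**Figure D2:**
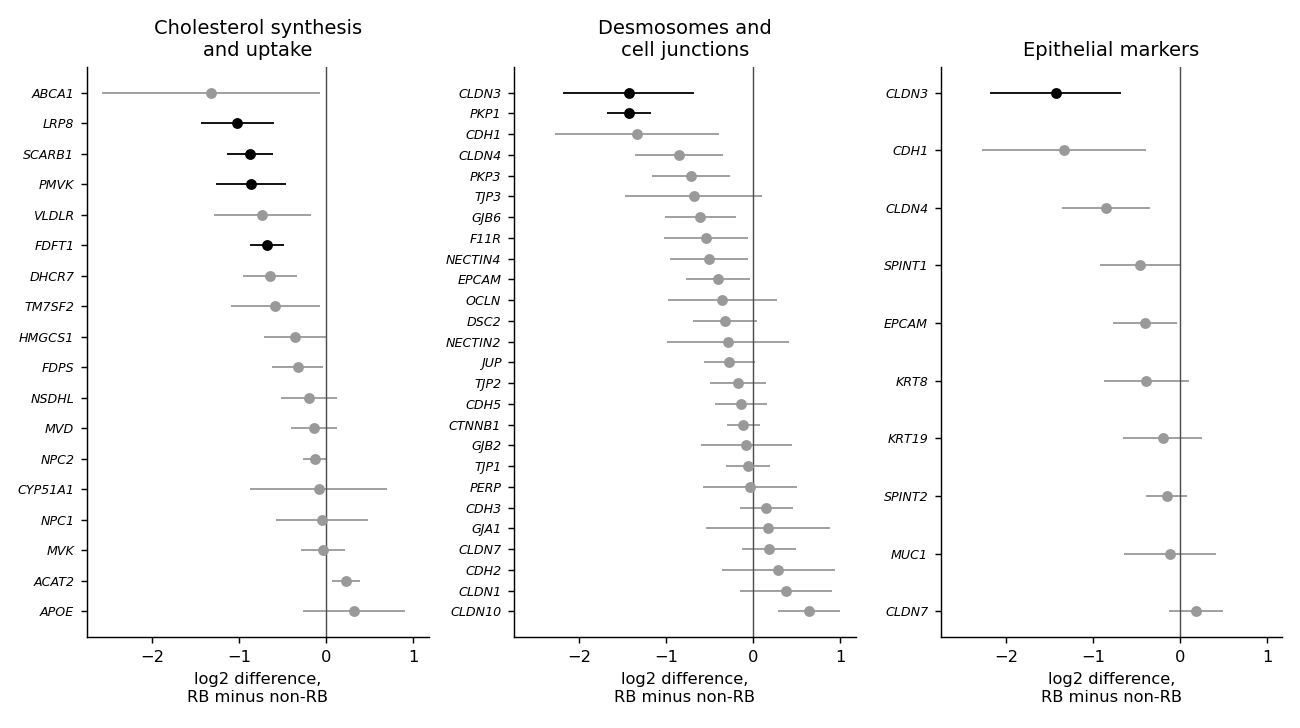
Log2 differences (RB minus non-RB, x axis) of genes tested in the lists of cholesterol synthesis and uptake, of desmosomes and cell junctions, and of epithelial markers, with standard errors from the 4 arrays of each group as bars. Black points had an unadjusted limma p under 0.05 and grey points did not. In the cholesterol panel 16 of the 18 genes shown lie left of 0, and in the marker panel 9 of 10.

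Markers of luminal and glandular epithelium were also mostly lower. Of 10, 9 had a negative difference, with a median of -0.40. At the unadjusted threshold 1 passed, CLDN3, where 2.09% of all named genes were lower. For none was every RB array below every non-RB array, where 1.61% of all named genes were so. Their summed signal, in multiples of the 75th percentile, was 23.4 to 34.6 on RB arrays and 42.6 to 54.6 on non-RB arrays, but the sum is led by a few bright genes such as CLDN3. The score that weighs the genes equally, their median deviation from the mean of the 8 arrays, overlapped, at -0.21, 0.015, -0.38 and -0.21 on RB and 0.54, 0.28, -0.83 and 0.20 on non-RB arrays. EPCAM, an adhesion molecule of epithelial cells, read 3.16, 3.38, 2.78 and 3.49 in RB and 3.98, 3.68, 2.64 and 4.14 in non-RB CAR, so non-RB replicate 3 was the lowest array of all and the difference was -0.41. In bulk tissue, fewer epithelial cells and less RNA per epithelial cell cannot be told apart, and the part of the epithelial share in the differences of these lists was not tested.

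Plakophilin 1 (PKP1), a desmosomal plaque protein that ties cadherins to keratin filaments, was the named gene with the lowest p among those lower in RB. RB arrays read -2.02, -2.09, -1.84 and -1.53, while non-RB arrays read 0.00, -0.98, -0.59 and -0.19. Every RB array was below every non-RB array, and the difference was -1.43 ± 0.29 (SE; exact permutation p = 0.0286; limma p = 0.000529), a 2.69-fold lower signal. It varied little between scan sessions, at -1.49 and -1.34, and lay between -1.61 and -1.28 with single arrays left out. Of 26 desmosome and junction genes tested, 20 were negative with a median of -0.28. At the unadjusted threshold 2 passed, both lower, where 2.09% of all named genes were lower. This list and that of epithelial markers share 5 genes, CDH1, CLDN3, CLDN4, CLDN7 and EPCAM. The other was the tight junction protein CLDN3, at 2.99, 1.49, 0.72 and 2.11 in RB and 2.90, 3.38, 4.75 and 2.01 in non-RB, which overlapped, with a difference of -1.43 that was -0.94 without non-RB replicate 3. CDH1, the epithelial cadherin (-1.33), CLDN4 (-0.85), PKP3 (-0.72) and TJP3 (-0.69) did not pass it, and CLDN10 (0.64) and CLDN1 (0.37) were positive.

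Keratins, the intermediate filaments of epithelium, were negative in 7 of 8 genes with a median of -0.29. KRT31, a hair-type keratin, separated the groups with RB arrays at -6.51, -6.30, -6.75 and -5.98 and non-RB arrays at -5.87, -5.42, -5.91 and -5.89, a difference of -0.61. KRT35 had a larger difference of -1.22 and overlapped, with RB replicate 4 at 0.72 against -1.89, -2.92 and -2.69 on the other RB arrays. KRT8 and KRT19, keratins of simple epithelium, had differences of -0.39 and -0.20. Actin regulators were balanced, 13 positive and 16 negative of 29 with a median of -0.02. Against 3.24% of all named genes, 1 was past the threshold. It was WASF1, which drives branched actin assembly through the Arp2/3 complex, at -5.41, -5.11, -4.0 and -4.37 in RB and -6.59, -6.13, -6.09 and -5.61 in non-RB CAR (1.38 ± 0.36 SE). PFN3, a profilin named from the study's list, had a difference of -0.99 with overlap.

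Secreted products split in direction. Chromogranin A (CHGA), a granule protein and prohormone of neuroendocrine cells, read 2.45, 0.86, 1.05 and 1.40 in RB and 5.07, 4.88, 1.37 and 3.99 in non-RB CAR. Non-RB replicate 3 was as low as the RB arrays, and the other 3 non-RB arrays were above all of RB. The difference was -2.39 ± 0.74 (SE; exact permutation p = 0.0857), a 5.24-fold lower signal, and -3.21 without non-RB replicate 3. Gastrin-releasing peptide (GRP), a peptide of uterine glands, was lower by a difference of -1.49 ± 0.54 (SE), at -5.29, -3.62, -5.52 and -3.37 in RB and -2.19, -3.17, -2.76 and -3.71 in non-RB. RB replicates 2 and 4 were within the non-RB range, and within the scan session of RB replicate 4 the value was 0.34.

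Neurotensin (NTS), a peptide hormone that acts on smooth muscle and secretion, was higher in RB. Its RB arrays read -4.82, -2.99, -4.52 and -4.71 and its non-RB arrays -5.25, -5.81, -5.36 and -7.90, without overlap. RB replicate 2 stood far above and non-RB replicate 4 far below the others of their group. The difference was 1.82 ± 0.62 (SE), 1.21 without non-RB replicate 4, and 0.92 after normexp correction. Of 23 histotroph and gland genes, 16 were negative with a median of -0.18. At the threshold 2 were higher and 3 lower, against 1.15% and 2.09% of all named genes. Besides NTS, CHGA and GRP these were the amino acid transporter SLC7A2 (1.04) and the chloride channel CFTR (-1.17). SERPINA14, the uterine milk protein (-1.28), and the fucosyltransferase FUT6 (-1.69) had differences that did not pass it. The summed signal of 7 gland markers was 5.55 to 8.09 in RB and 6.98 to 20.4 in non-RB CAR.

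Among 24 solute and water channels the median was -0.29. At the threshold 1 was higher and 4 were lower, against 1.15% and 2.09% of all named genes. The higher one was SLC5A3, which imports myo-inositol with sodium, at -3.90, -4.15, -3.42 and -3.51 in RB and -5.37, -4.76, -4.79 and -4.56 in non-RB CAR (1.12 ± 0.28 SE), with no overlap. Among the lower ones were CFTR, the water channel AQP5 (-0.83) and the muscle calcium channel CACNA1S (-1.61), and the groups overlapped in these. Without non-RB replicate 4 the median of this list turned to 0.05. CACNA2D1, an accessory subunit of calcium channels, was higher in RB without overlap, at -5.76, -5.24, -4.29 and -5.57 against -6.81, -6.31, -5.89 and -6.74 (1.23 ± 0.37 SE).

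**Figure D3:**
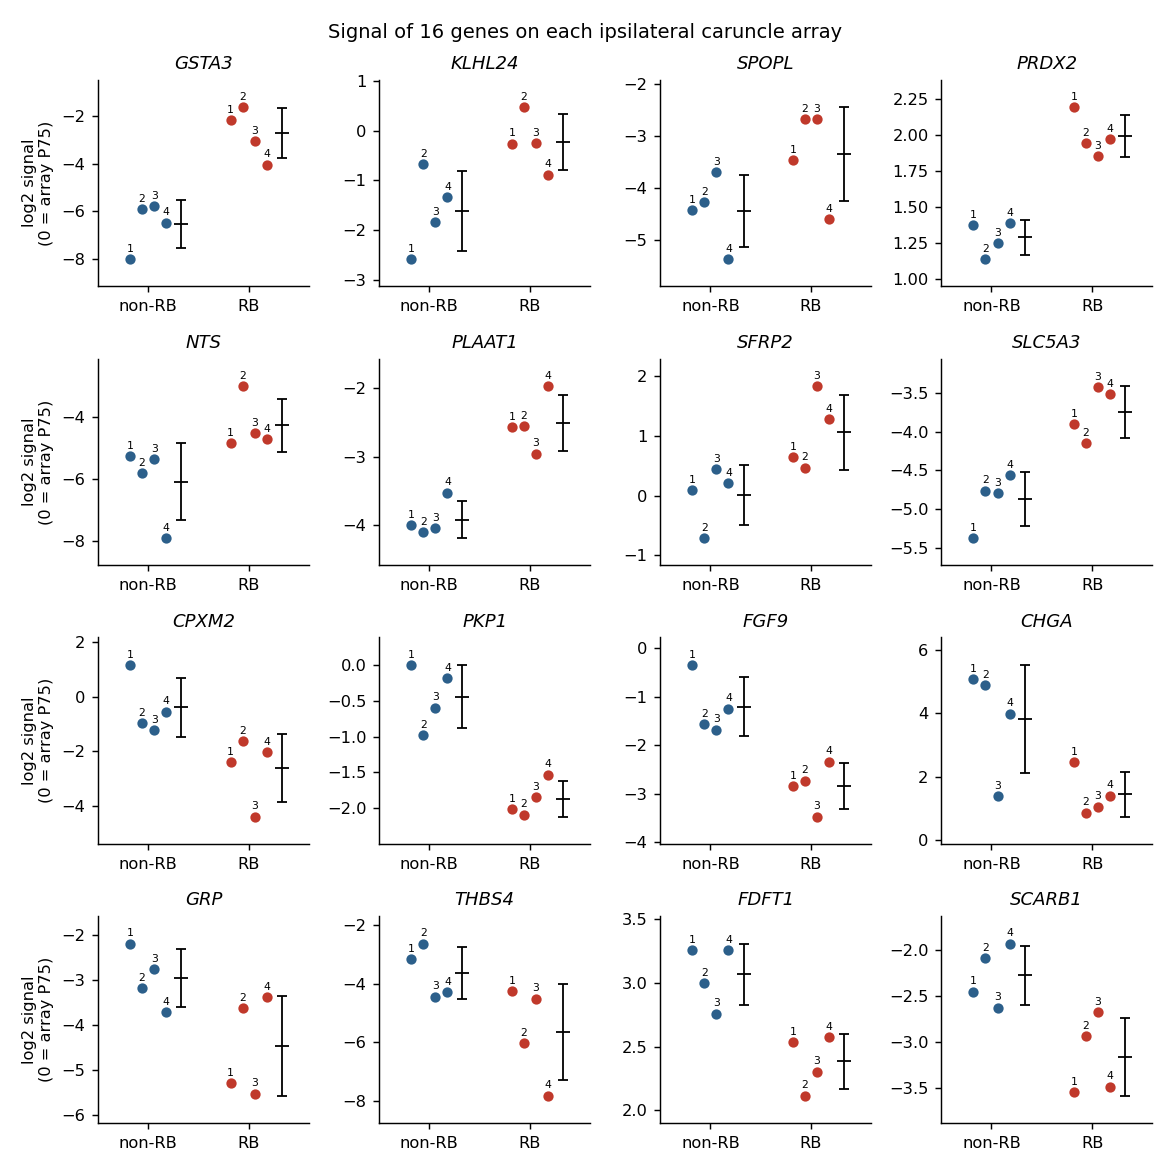
Log2 signal above the array's 75th percentile (y axis) of 16 genes on the 4 non-RB (blue) and 4 RB (red) arrays of ipsilateral CAR, each point numbered by its replicate, with the group mean and SD as a bar at the side. Each panel has its own y range. GSTA3, PRDX2, NTS, PLAAT1, SFRP2, SLC5A3, CPXM2, PKP1, FGF9, FDFT1 and SCARB1 show no overlap, PRDX2 by the probe named from the study's list and not by its other probe, whereas KLHL24, SPOPL, CHGA, GRP and THBS4 do.

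Growth factor genes differed singly. FGF9, a fibroblast growth factor that acts on stroma and is named here from the study's list, read -2.84, -2.73, -3.47 and -2.34 in RB and -0.34, -1.56, -1.67 and -1.24 in non-RB CAR. The groups did not overlap, and the difference was -1.64 ± 0.36 (SE; exact permutation p = 0.0286), a 3.12-fold lower signal. In the list of 11 other FGF and Sprouty genes the median was -0.01. At the threshold 2 were lower and none higher, against 2.09% and 1.15% of all named genes. FGFBP1, which releases FGFs from the matrix, had a difference of -1.42, and SPRY2, an inhibitor of FGF signalling, one of -0.61. FGF2 (0.67) and FGF1 (0.64) were positive and did not pass it.

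SFRP2, a secreted antagonist of Wnt ligands, was higher in RB at 0.64, 0.47, 1.84 and 1.29 against 0.09, -0.71, 0.45 and 0.21 in non-RB CAR. RB replicate 2 and non-RB replicate 3 almost met, and the difference was 1.05 ± 0.37 (SE). IGF1, the growth factor made by endometrial stroma, was higher on its named probe by 0.95 ± 0.32 (SE), with RB arrays at -4.68, -4.57, -4.16 and -4.91 just above non-RB arrays at -6.25, -5.09, -5.66 and -5.11. With its probes averaged, IGF1 was the only one of 12 IGF axis genes past the threshold, where 3.24% of all named genes were (median of the list 0.18). On that measure no gene of the list had every RB array above every non-RB array, and the largest difference was 0.84. IGFBP3 (0.79) and IGFBP1 (-0.90), binding proteins of IGFs, stood at either side, and the median of the list turned to -0.10 without non-RB replicate 4. BMPR2, the type II receptor of bone morphogenetic proteins, was higher by a small and even difference of 0.65 ± 0.22 (SE), at -4.60, -4.69, -4.80 and -4.94 in RB and -5.47, -5.33, -5.56 and -5.26 in non-RB CAR. The other 25 of 26 BMP, activin and TGF-beta genes did not pass the threshold, which 3.24% of all named genes did, and 13 of the 26 were negative. TCF4, a basic helix-loop-helix transcription factor, was higher by 0.71 ± 0.27 (SE) without overlap.

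Matrix genes were balanced as lists, but single members differed by 4-fold or more. CPXM2, a carboxypeptidase-like protein without known catalytic activity, read -2.40, -1.62, -4.40 and -2.03 in RB and 1.16, -0.96, -1.22 and -0.55 in non-RB CAR. The groups did not overlap, and the difference was -2.22 ± 0.66 (SE), a 4.66-fold lower signal, with RB replicate 3 the lowest and non-RB replicate 1 the highest array. THBS4, a thrombospondin of the matrix, was lower by a 4.07-fold difference (-2.02 ± 0.75 SE), at -4.24, -6.03, -4.51 and -7.82 in RB and -3.15, -2.62, -4.44 and -4.29 in non-RB. RB replicate 1 was within the non-RB range, and without RB replicate 4 the difference was -1.30.

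Of 33 collagens and matrix proteins the median was 0.02. At the threshold 1 was higher and 3 lower, against 1.15% and 2.09% of all named genes. Besides THBS4 these were vitronectin, VTN (-0.78), the basement membrane linker NID1 (-0.74) and the elastic fibre protein FBLN5 (0.52). FBLN5 separated the groups, at 0.22, 0.26, -0.20 and 0.13 in RB and -0.45, -0.41, -0.30 and -0.48 in non-RB CAR. It stayed past the threshold in 1 of 8 fits with single arrays left out. The collagen gene COL1A2 had a difference of 0.61 (exact permutation p = 0.0571). Of 32 proteases and inhibitors, CPXM2 was the one that passed, where 3.24% of all named genes did, and the median was -0.13. ITGB5, an integrin subunit that binds vitronectin, was lower at 4.50, 3.27, 4.18 and 3.95 against 5.56, 4.72, 4.59 and 5.16, a difference of -1.03 ± 0.34 (SE).

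In the vascular list, 19 of 33 genes were positive with a median of 0.13. Endothelin 1 (EDN1), a vasoconstrictor made by endothelium, was the one past the threshold, at a difference of 0.88 (exact permutation p = 0.0857). Of all named genes 3.24% were past it. Of 9 endothelial markers 7 were positive with a median of 0.27, and their summed signal was 4.75 to 6.18 in RB and 3.57 to 7.55 in non-RB CAR. KDR, a receptor of vascular endothelial growth factor, was read by probes that disagreed in sign. The one printed here gave a difference of 0.38 ± 0.38 (SE) and the other -0.52 ± 0.36 (SE), and neither passed the threshold.

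KDR: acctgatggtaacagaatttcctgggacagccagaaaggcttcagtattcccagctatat

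Immune genes differed in both directions. The probe annotated as an immunoglobulin light chain VJ region, picked out after its values were seen, read -3.73, -2.91, -4.11 and -4.19 in RB and -7.55, -6.17, -5.49 and -6.00 in non-RB CAR, a difference of 2.56 ± 0.46 (SE) with no overlap. Its sequence is printed above, and it belongs to a multigene family whose members share sequence. JCHAIN, which joins secreted IgA and IgM, had a difference of 1.98 ± 0.93 (SE; exact permutation p = 0.229) that came from non-RB replicates 1 and 2 at -2.46 and -1.46, since non-RB replicates 3 and 4 at 1.21 and 2.41 were as high as RB arrays at 2.44, 1.02, 2.26 and 1.91. Within the smaller scan session the difference of JCHAIN was -0.51. The summed signal of 3 B and plasma cell markers was 2.34 to 5.71 in RB and 0.393 to 5.57 in non-RB CAR.

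FCAR, an Fc receptor for IgA on myeloid cells, was lower in RB without overlap, at -6.06, -5.93, -7.03 and -6.14 against -5.77, -5.02, -5.23 and -4.64 (-1.12 ± 0.34 SE). Myeloid markers were negative in 13 of 16 genes with a median of -0.20, and their summed signal was 3.44 to 4.55 in RB and 3.19 to 7.06 in non-RB CAR. Of 14 T and NK cell genes 8 were negative (median -0.05), with the kinase LCK at -0.94 and the T cell receptor subunit CD3D at 0.65. CD4, the helper T cell co-receptor, had a probe with a difference of -0.46 and another that was not well above background on any of the 8 arrays. IL10, an anti-inflammatory cytokine, had a difference of -0.18 ± 0.34 (SE), and the chemokine CCL4 one of -0.26 ± 0.25 (SE).

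Interferon response genes, which a conceptus would induce, were balanced. Of 24 tested, 12 were positive and 12 negative, none passed the unadjusted threshold, where 3.24% of all named genes did, and the median was -0.03. OAS2 (-0.93), MX2 (-0.79) and IFITM1 (-0.55) were at the lower end and EIF2AK2 (0.61) at the upper. Prostaglandin genes were as balanced, with 12 of 22 positive, none past the threshold and a median of 0.02, from PTGES2 (-0.66), a prostaglandin E synthase, to PTGER4 (0.61), a receptor of prostaglandin E2. PTGS2, the inducible cyclooxygenase, was at -0.54. Of 11 steroid and oxytocin receptor genes, 1 passed, the membrane progestin receptor PAQR6, with RB arrays tightly grouped at 0.19, 0.19, -0.02 and 0.13 below non-RB arrays at 1.15, 0.50, 0.80 and 1.38 (-0.84 ± 0.26 SE). The nuclear receptors PGR (0.32) and ESR1 (0.46) and the oxytocin receptor OXTR (-0.65) did not.

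Oxidative phosphorylation subunits had small differences, 45 of 73 negative with a median of -0.10. Of all named genes 3.24% were past the unadjusted threshold. UQCRC2, a core subunit of complex III, was the one past the threshold, at 0.97, 1.06, 0.84 and 0.89 in RB and 1.64, 1.37, 1.41 and 1.81 in non-RB CAR (-0.62 ± 0.23 SE). Genes of endoplasmic reticulum folding and secretion were negative in 17 of 25 with a median of -0.18, and SEC61G, a subunit of the protein-conducting channel, was the one that passed (-0.70). The chaperone CALR (-0.18) and the transcription factor XBP1 (-0.50) did not.

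**Figure D4:**
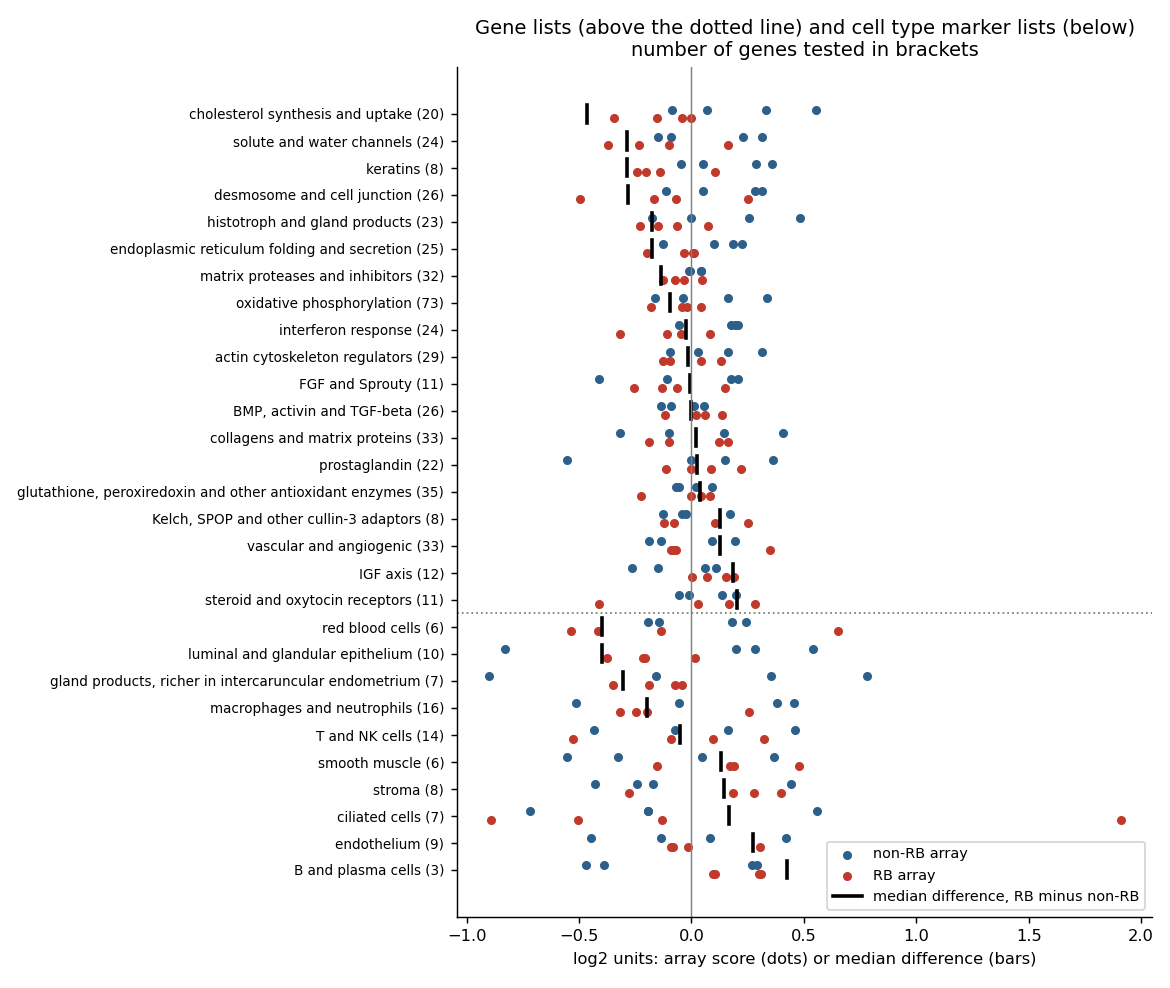
For each gene list and each marker list, dots give the score of an array, the median over the genes of the list of their deviation from the mean of the 8 arrays, in log2 units, for non-RB (blue) and RB (red) arrays of ipsilateral CAR. Black bars give the median log2 difference of the list, which is lowest for the cholesterol list at -0.47 among gene lists. The scores of non-RB arrays enclose those of RB arrays in 5 of 10 marker lists, with non-RB replicate 3 at -0.83 in the epithelial list.

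Of the remaining genes with groups apart and a p under 0.05, PLAAT1 had the lowest p of those higher in RB. It encodes a phospholipase and acyltransferase, and it read -2.56, -2.55, -2.95 and -1.96 in RB and -4.0, -4.10, -4.04 and -3.52 in non-RB CAR (1.41 ± 0.28 SE; exact permutation p = 0.0286; limma p = 0.000519). With single arrays left out the difference was between 1.23 and 1.56. ACKR4, a scavenging chemokine receptor, RPP38, a ribonuclease P subunit, and OOSP2, an oocyte-secreted protein, were not well above background on any non-RB array, so their signals in RB were at least 1.57-fold, 1.11-fold and 1.37-fold higher, bounds set by the dimmest probes well above background. MAEL, a germline gene of transposon silencing, was higher by 1.31 on signals near background. After normexp correction ACKR4, RPP38 and MAEL were at 0.11, 0.015 and 0.034, and OOSP2 was at -0.0096.

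On the lower side, HCRTR1, a receptor of orexins, read -6.27, -7.58, -6.69 and -7.08 in RB and -5.05, -5.20, -5.88 and -5.90 in non-RB CAR (-1.40 ± 0.35 SE). STAC, an adaptor of calcium channels, read -1.26, -2.35, -1.46 and -1.38 against -0.37, -0.93, -0.36 and -0.10 (-1.17 ± 0.32 SE). BAIAP2L2, which bends membranes in microvilli, was lower at 0.64, 0.30, 0.23 and -0.36 against 2.30, 1.46, 0.90 and 0.78 (-1.16 ± 0.38 SE). XRCC1, a scaffold of DNA strand break repair, LRRFIP2 and ANGEL1 had differences of -1.10, -1.11 and -0.99. SPADH2, a spermadhesin, was well above background on no RB array and on 2 non-RB arrays only. Its bound of at least 1.39-fold lower in RB leaned on non-RB replicate 1 at -4.94, against -8.39, -7.85 and -7.78 on the other non-RB arrays. After normexp correction the SPADH2 difference was -0.66. For ST3GAL1, a sialyltransferase, only 2 non-RB arrays and no RB array gave a signal well above background, and it had no bound above 1. SSLP1, named from the study's list, was lower by a difference of -1.34 ± 0.39 (SE), with RB replicate 1 at 0.15 just inside the non-RB range.

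With normexp background correction the difference of 28 of 85 named probes was smaller by over 1.5 times, and 14 of these kept their direction but were no longer past the unadjusted threshold. Besides those already given, WASF1 was at 0.62, CACNA2D1 at 0.47, SLC5A3 at 0.72 and IGF1 at 0.49. BMPR2 was at 0.27, and THBS4 at -1.27. HCRTR1, FCAR and XRCC1 were at -0.72, -0.66 and -0.48, and CACNA1S at -0.50.

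The RB difference was set beside that of the other areas, each from its own 4 against 4 arrays. GSTA3 was at 3.49 in contralateral CAR, 1.86 in ipsilateral ICAR and 1.08 in contralateral ICAR. KLHL24 was at 1.84, 1.38 and 1.28 there, CPXM2 at -1.55, -1.22 and -1.63, THBS4 at -2.09, -1.78 and -1.62, CHGA at -1.75, -1.62 and -1.23, and PIPOX at 2.09, 2.23 and 1.80. By the study's methods the 4 areas came from the same cows, but no label says that a replicate number marks a cow.

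**Figure D5:**
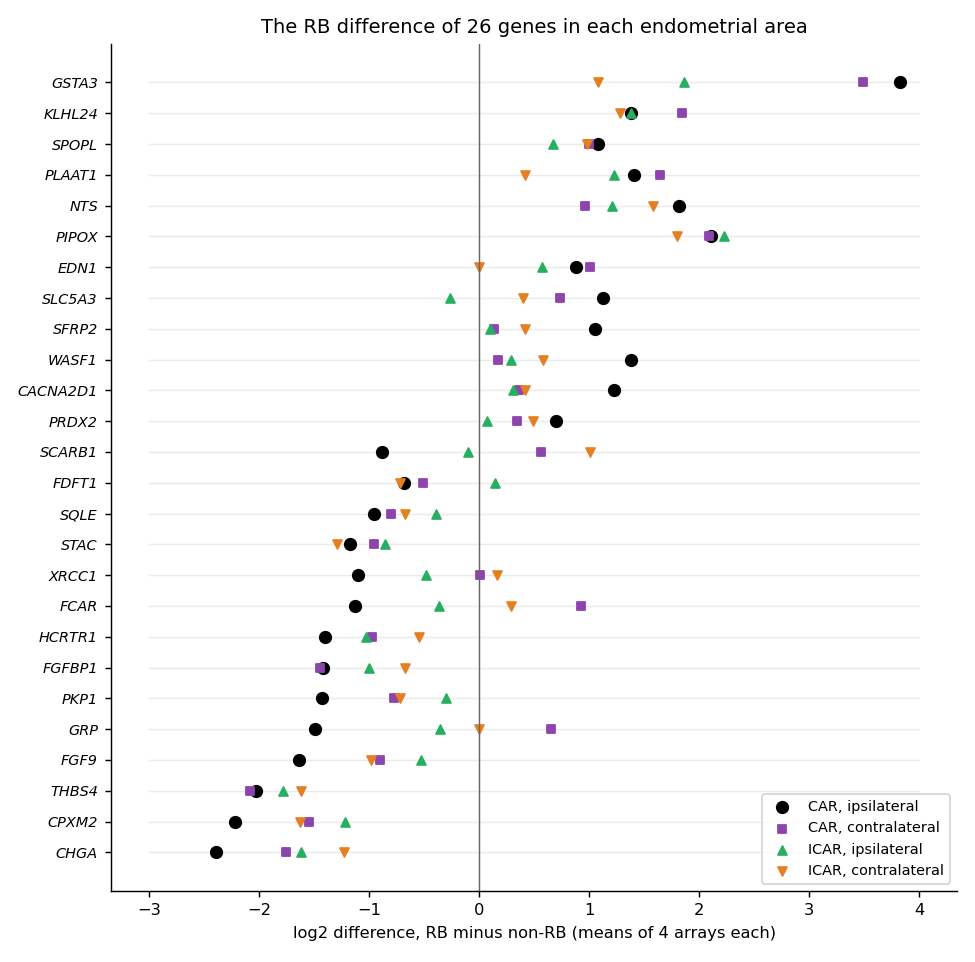
Log2 difference (RB minus non-RB, means of 4 arrays each, x axis) of 26 genes in ipsilateral CAR (black circles) and in the other 3 areas (coloured symbols). WASF1, SFRP2 and CACNA2D1 lie further right in ipsilateral CAR than in the other areas. SCARB1, FCAR and GRP lie left of 0 in ipsilateral CAR and right of 0 in contralateral CAR, and XRCC1 lies left of 0 in ipsilateral CAR and at 0.01 in contralateral CAR.

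A test of the difference itself (limma interaction) found no probe at an adjusted p under 0.05 between ipsilateral and contralateral CAR (0 of 13005) or between ipsilateral CAR and ICAR (0 of 12923). At the unadjusted threshold it gave 41 probes (0.315%) and 106 (0.82%), both below the share that chance gives. A gene named below as passing is therefore not shown to differ between areas. Same-numbered CAR and ICAR arrays of this horn deviated together. For non-RB replicates 1 and 4 and RB replicates 2, 3 and 4 both lay on the same slide, so a shared cow and a shared slide cannot be told apart there. With same-numbered arrays paired the second count was 657, close to the share that chance gives at that threshold, still with 0 after adjustment. SCARB1 was one of those 41, with -0.88 ipsilaterally and 0.56 contralaterally, and XRCC1 another, with -1.10 and 0.01. WASF1 (1.38 against 0.17), FCAR (-1.12 against 0.92) and GRP (-1.49 against 0.65) did not pass that threshold, though FCAR did with same-numbered arrays paired. Among the 106 against ICAR of the same horn, PKP1 was at -1.43 in CAR and -0.30 in ICAR. SLC5A3 was at 1.12 and -0.26, SEC61G at -0.70 and 0.38, and the PRDX2 probe named from the study's list at 0.70 and 0.07. With the arrays paired, PKP1, SLC5A3 and SEC61G still passed and PRDX2 did not, while WASF1 (1.38 and 0.29), CACNA2D1 (1.23 and 0.31) and FGF9 (-1.64 and -0.53) were among those that newly passed.

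The median of the cholesterol list was -0.18 in contralateral CAR, -0.23 in ipsilateral ICAR and -0.33 in contralateral ICAR, with 14, 13 and 16 of 19 genes negative. For the junction list it was -0.10, 0.10 and -0.33, and for epithelial markers -0.14, 0.11 and -0.33. These medians rest on arrays of their own areas and their differences from ipsilateral CAR were not tested.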

How the data were processed

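The authors hybridised Cy3-labelled cRNA to 1-colour Agilent arrays and deposited the scanner files (intensity per spot, Agilent Feature Extraction 9.5) and a table of normalized log2 values. The deposited log2 values equal log2 of the background-subtracted intensity minus the 75th percentile of the array, up to a constant per array. Here that scale was recomputed from the deposited intensity column, leaving out control spots and outlier spots. Of 15208 probes, 6382 received a current symbol through the RefSeq gene table and 10 a name from the study's own list. Probes were tested with limma 3.58.1 in R 4.3.3 (lmFit, eBayes, Benjamini-Hochberg), after a check on simulated data. Single probes were also tested with two-sided exact permutation tests over 70 splits, or fewer where a value was missing (Python 3.11.15, numpy 2.4.6). A gene with several probes entered its list as their mean, with a p from a fit of that mean. Named genes were the 12 largest differences in each direction among genes with p under 0.05 and no overlap, genes the study discusses, up to 4 of each of 19 lists and the brightest of each of 10 marker lists. Some genes are counted in their lists and not reported here by name. The members and lists were chosen with earlier results of these data known. Alternatives covered filter, normalization, background correction, slide, scan session, replicate block and single arrays left out. Replicate numbers were checked for pairing by correlating deviations from group means: over 8 pairs r was 0.104 to 0.644 between CAR and ICAR of the ipsilateral horn, and 0.0522 to 0.556 between CAR of both horns. Some of these pairs shared a slide, and correlations between different numbers were not set beside them.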

Additional observations from a re-analysis of the deposited data

Results flagged for a closer look

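Over 85 named probes in 2 groups of 4 arrays, 8 of 170 groups had 1 array further from the others than Dixon's critical gap allows, where chance flags about 1 in 20 groups. RB replicate 3 was the lowest for ALAS2, an enzyme of heme synthesis in red blood cells (-1.52), and the highest for the CD4 probe that is not above background (-8.41). RB replicate 2 was the highest for NTS (-2.99), and RB replicate 1 the lowest for NID1 (-6.95). Among non-RB arrays, replicate 1 was the lowest for KLHL3 (-3.43), replicate 2 was the highest for KRT31 (-5.42) and the lowest for VTN (-0.22), and replicate 3 was the highest for the same CD4 probe (-8.01).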

How the results depend on the processing

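No setting gave a probe at an adjusted p under 0.05 in ipsilateral CAR or in either interaction, and no paired reading changed that. Counts at the unadjusted threshold moved. Of 189 higher and 257 lower probes, 66 and 113 were left with the slide as a random block (correlation 0.507 within a slide). There were 584 and 576 with the scan session as a block, and 384 and 377 with the replicate block. The counts of the session and replicate blocks were above the share that chance gives at that threshold. RB and non-RB cows were different animals, and their arrays of 1 number correlated at 0.0773 to 0.363 after removal of group means and 2 of 4 RB arrays correlated best with their own number. Leaving out single arrays gave 109 to 371 higher and 168 to 446 lower probes. Higher probes were 109 without RB replicate 3, 125 without non-RB replicate 1, 364 without non-RB replicate 3 and 371 without RB replicate 1, and lower probes were 168 without RB replicate 3 and 446 without non-RB replicate 4. Interaction counts at that threshold were 104 in place of 41 and 657 in place of 106 with the replicate block on within-number differences, 76 in place of 41 with no filter, and 25 to 113 and 36 to 305 with single arrays left out. The causes of these shifts were not tested. Of the named probes, 8 values turned in sign. OOSP2 was -0.0096 with normexp and SPAG6 -0.44 with the scan session as a block. With single arrays left out, DIO2 ranged from -0.29 to 0.023, IL10 from -0.50 to 0.021, MYLK from -0.066 to 0.40, C1QB from -0.43 to 0.058 and SPAG6 from -0.45 to 0.67, being negative for SPAG6 without non-RB replicate 3 and without RB replicate 2 (-0.44). Against 1351 values on the same side of the threshold, 194 were no longer past it and 46 newly past it. Of 8 fits with single arrays left out, VTN, NID1, CLDN3, AQP5 and SPRY2 stayed past it in 2. KRT31, EDN1, FGFBP1 and PMVK did so in 3, whereas GSTA3, PKP1 and FGF9 did so in all 8. Signals near background limit what can be measured, since 2128 probes were too dim to test and the fold of dim genes depends on the background correction.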

Other observations

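Of 159 probes with an unadjusted p under 0.05 and no overlap between groups, 85 had no gene symbol here. One of these was a clone-derived probe (ABR9229) at -7.71, -5.08, -2.28 and -5.67 on RB arrays and -9.11, -8.36, -8.91 and -9.69 on non-RB arrays of ipsilateral CAR. It was well above background on 3 RB arrays and on no non-RB array. Its signal in RB was therefore at least 5.28-fold higher, a bound set by the dimmest probes well above background. A further clone-derived probe (ABR8195) had a difference of 2.54 with RB arrays at -5.75, -5.50, -3.94 and -5.99 and non-RB arrays at -8.24, -7.92, -6.70 and -8.47.

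Ciliated cell genes gave 1 array apart from the rest. RB replicate 2 had a score of 1.91 over 7 genes, against -0.89 to -0.13 on the other RB arrays and -0.72 to 0.56 on non-RB arrays, and the summed signal reached 0.977 on an RB array. Smooth muscle genes had a median difference of 0.13 over 6 genes and red blood cell genes one of -0.40 over 6, with summed signals that overlapped between groups. DIO2, a deiodinase that activates thyroid hormone, was read by probes at 0.41 and -0.14, neither past the threshold.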
